A study of Mus musculus with 6 samples.

Results

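The genes described here are 53 genes of mitosis and cytokinesis, the division of the nucleus and of the cell body, taken by symbol from a list and found at 53 rows among the 15803 genes of the expression table. The table covers growth plate cartilage of mouse embryos, from which 6 libraries of poly(A) RNA were made, 3 for each of the groups WT and CKO. The WT embryos were Hnrnpk fl/fl, with Hnrnpk alleles that carry loxP sites and no Cre, and the CKO embryos were Col2a1-Cre;Hnrnpk fl/fl, so that both groups share the floxed alleles. In the CKO embryos Cre is made under the Col2a1 promoter, which is active in chondrocytes, and removes the exons between the loxP sites of Hnrnpk, the gene of an RNA-binding protein. Cells in whose history Col2a1-Cre was not active keep the gene. The embryos were collected at E18.5, shortly before birth, and the source is labelled growth plate chondrocytes. The labels do not say whether the libraries came from separate embryos, so the p-values measure only the spread between these libraries, which may be technical.

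Growth plate cartilage lengthens bone through columns of proliferating chondrocytes, which stop dividing before they enlarge and become hypertrophic. A dividing cell enters mitosis when the kinase Cdk1 is switched on by cyclins, holds its chromosomes at the spindle under a checkpoint until all are attached, and then degrades securin and cyclin B to separate them. Many of the genes for these steps are transcribed late in the cell cycle and are silent in cells that do not divide, so their RNA is widely used as a sign of dividing cells. Promoters of this class are known for a CCAAT box, bound by the factor NF-Y, and for the cell cycle genes homology region with the core TTTGAA, bound by the MuvB complexes that hold these genes silent in resting cells and activate them with Mybl2 and Foxm1 before mitosis.

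A promoter window of 300 bases, 250 before and 50 after the start of the gene, was at hand for 44 of the 53 genes (RefSeq, GRCm38.p6). The windows of Aurkb, Ccna2, Cdc25c, Foxm1, Incenp, Kif20a, Smc4, Spc24 and Tpx2 were not analysed here. Counted on both strands, TTTGAA stood in 32 of the 44 windows (72.7%), against 11.4% of the windows of 9128 other genes tested. CCAAT stood in 34 windows (77.3%) against 39.3%, at least 2 CCAAT in 23 windows (52.3%) against 15.1%, and both motifs in 29 windows (65.9%) against 4.65%. The place of TTTGAA differed too. In 29 of the 32 windows with it (90.6%) a match began at 50 bases before the start or further downstream, against 22.5% of the other genes with a match, and the median first base was at -16 in the mitosis genes and at -147 in the others. These are counts of letters in windows, and no binding was measured. The 6 stretches below run from 120 bases before the start to 30 bases from it, with matches to both motifs in capitals. On the other strand the first motif reads TTCAAA and the second ATTGG. They are shown for Cdk1, the central kinase of the group (chr10:69352883-69353032, minus strand), for Bub3 (chr7:131560250-131560399, plus strand) and Prc1 (chr7:80294331-80294480, plus strand), whose CKO libraries all lay above the WT libraries, for Ube2c, with one of the highest ratios of CKO 2 to the other libraries (chr2:164769809-164769958, plus strand), and for Mki67 (chr7:135716350-135716499, minus strand) and Pttg1 (chr11:43425952-43426101, minus strand), whose calls depended on that library.
Cdk1: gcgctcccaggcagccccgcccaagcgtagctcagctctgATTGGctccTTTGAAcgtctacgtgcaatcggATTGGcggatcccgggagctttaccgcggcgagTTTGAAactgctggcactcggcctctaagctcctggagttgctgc
Bub3: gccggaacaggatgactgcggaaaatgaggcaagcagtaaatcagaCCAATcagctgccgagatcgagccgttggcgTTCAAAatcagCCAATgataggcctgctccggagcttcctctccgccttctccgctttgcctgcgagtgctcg
Prc1: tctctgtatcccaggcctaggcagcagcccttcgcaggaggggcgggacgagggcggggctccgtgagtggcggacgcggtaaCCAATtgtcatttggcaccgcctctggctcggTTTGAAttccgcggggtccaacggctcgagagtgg
Ube2c: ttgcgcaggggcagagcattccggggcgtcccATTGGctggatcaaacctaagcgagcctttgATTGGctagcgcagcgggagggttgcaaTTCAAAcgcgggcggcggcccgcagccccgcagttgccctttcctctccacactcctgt
Mki67: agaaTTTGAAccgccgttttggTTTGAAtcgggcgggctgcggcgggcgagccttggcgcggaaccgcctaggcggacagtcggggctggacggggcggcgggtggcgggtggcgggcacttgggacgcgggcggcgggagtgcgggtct
Pttg1: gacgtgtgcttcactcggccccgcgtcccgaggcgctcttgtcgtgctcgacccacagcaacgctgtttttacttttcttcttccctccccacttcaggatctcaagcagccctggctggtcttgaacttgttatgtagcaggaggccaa

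Among these stretches those of Cdk1, Bub3, Prc1 and Ube2c hold both motifs. The Mki67 stretch holds TTTGAA at -116 and -98, with its 3 CCAAT matches further upstream in the window. The whole window of Pttg1 holds neither, but its RefSeq start lies 270 bases inside the gene as GENCODE annotates it, so the window does not reach the bases before that annotated start. The starts of Kif4, Cdca8 and Kif2c lay 328, 2394 and 3867 bases from those of GENCODE. The Ube2c window had 6 CCAAT matches, of which the pair at -186 and -183 lies on opposite strands and shares bases.

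The libraries were shallow, with 1153871 to 1454094 reads each, so that 3 reads stood at 2.06 to 2.60 CPM (reads of a gene scaled to a common library total of 1000000). Hnrnpk, the targeted gene, had 842, 955 and 944 CPM in the WT libraries, always given in the order of their replicate numbers, against 759, 949.9 and 780.0 CPM in the CKO libraries. Its level in CKO 2 lay within the WT range and its levels in CKO 1 and CKO 3 lay below every WT library (log2 fold change -0.14, SE 0.15, limma's adjusted p = 0.622). A count over the whole gene includes exons outside the deleted stretch, so this value does not check the labels. The labelled cell type was present in every library, since Col2a1 stood at 2720 to 3944 CPM in WT and 1411 to 1950 CPM in CKO. In cartilage as a whole, a change in the number of dividing cells and a change in transcript per cell cannot be told apart.

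With all 6 libraries, 0 of the 53 mitosis genes passed limma's adjusted p of 0.05 in either direction, against 3.18% of the 12155 genes tested that were higher and 2.6% that were lower in CKO. At an unadjusted p under 0.05, 4 of the 53 were higher (Bub3, Prc1, Mad2l1 and Cks2) and 0 were lower, against 11.2% and 10.1% of all genes. Of all genes 10.4% met the criterion of the study, a log2 fold change of more than 1 in either direction with that p, and 0 of the mitosis genes did. In the same 4 genes every CKO library lay above every WT library, against 14.5% of all genes, and in 0 genes did every CKO library lie below, against 13.2%. Log2 fold changes ran from -0.77 for Spc24 to 0.86 for Prc1, with 40 above 0 and 13 below, a median of 0.22 and a median of 0.01 over all genes tested. The 40 include Foxm1, Mybl2 and Espl1, which lay near the floor. On the recovered reads, edgeR's quasi-likelihood test called 0 of the 47 mitosis genes it tested, against 9.57% of all genes tested. DESeq2, fitted to all 53, called 0, against 6.02% of all genes with an adjusted p. It gave no adjusted p for Mybl2 and Espl1. A gene that missed the threshold was not thereby shown to be equal in both groups. The 95% intervals of 16 genes lay within 2-fold in both directions, that is between -1 and 1 on the log2 scale, and those of the other 37 did not.

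The CKO libraries differed among themselves, with CKO 2 apart from the others. It held the highest level of 47 of the 53 genes (88.7%), against 22.4% of all genes tested. Among the 47, Espl1 reached the minimum mean of 1 CPM only through this library. In these 47 genes its level was 1.02 to 3.42 times that of the next highest library, with a median ratio of 1.53, and in 25 genes it was at least 1.5 times as high. Together the 53 genes took 0.191%, 0.190% and 0.171% of the reads in WT 1, 2 and 3 and 0.192% and 0.189% in CKO 1 and CKO 3, but 0.300% in CKO 2 (95% Wilson interval 0.291 to 0.309%, counting error only). The median difference of the genes from the WT mean, on the scale of log2(CPM + 1), was 0.86 in CKO 2 and -0.16 in CKO 3. At the other end, WT 3 held the lowest level of 19 genes (35.8%, against 17% of all genes tested). CKO 3 held that of 14 (26.4% against 14.4%) and CKO 1 that of 10 (18.9% against 15%). The median log2 fold change of the mitosis genes was 0.13 without WT 3.

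**Figure D1:**
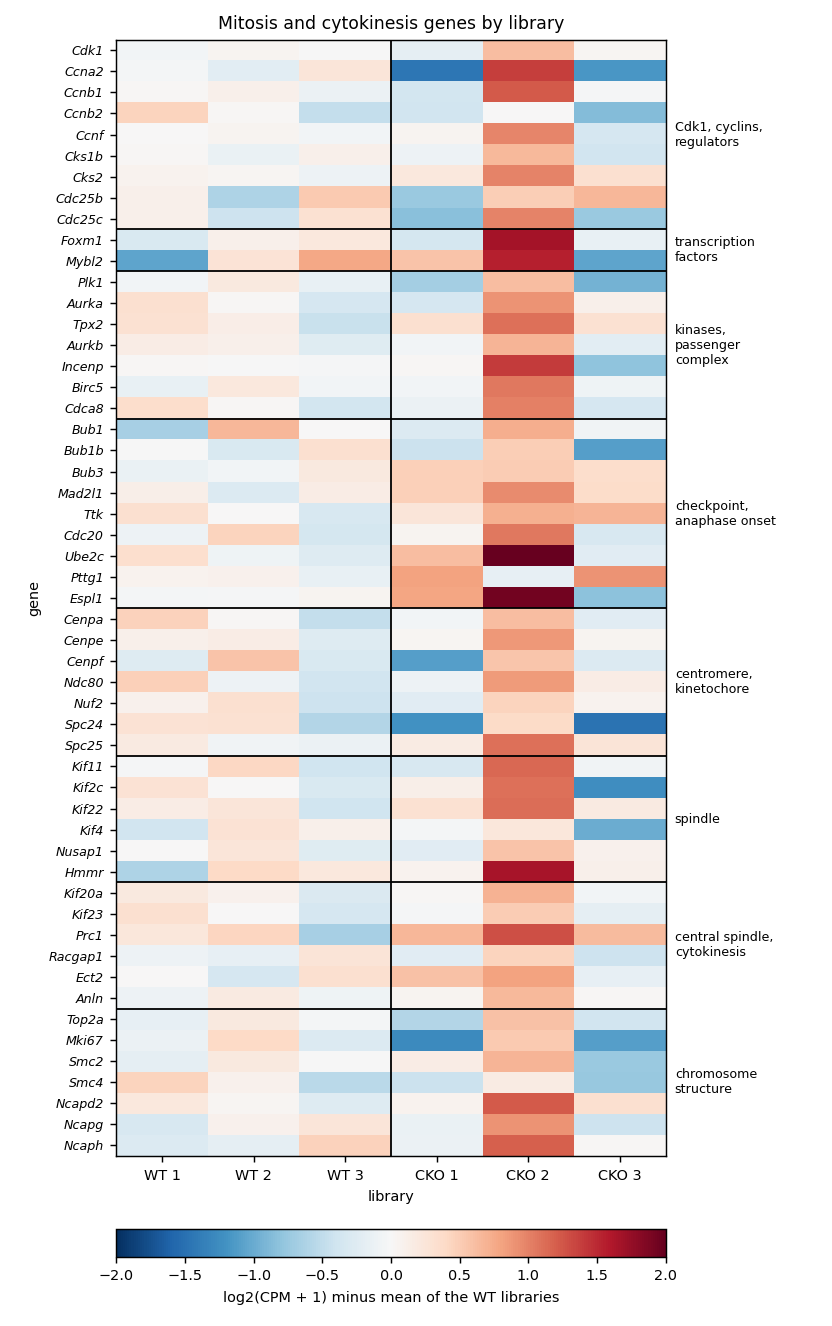
Each row is 1 of the 53 mitosis and cytokinesis genes, grouped by role, and each column is 1 library. Colour shows log2(CPM + 1) minus the mean of the 3 WT libraries, from lower (blue) to higher (red). The column of CKO 2 is red in nearly every row, with Pttg1 as the gene at its lowest there, while CKO 1 and CKO 3 are a mixture of both colours.

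**Figure D2:**
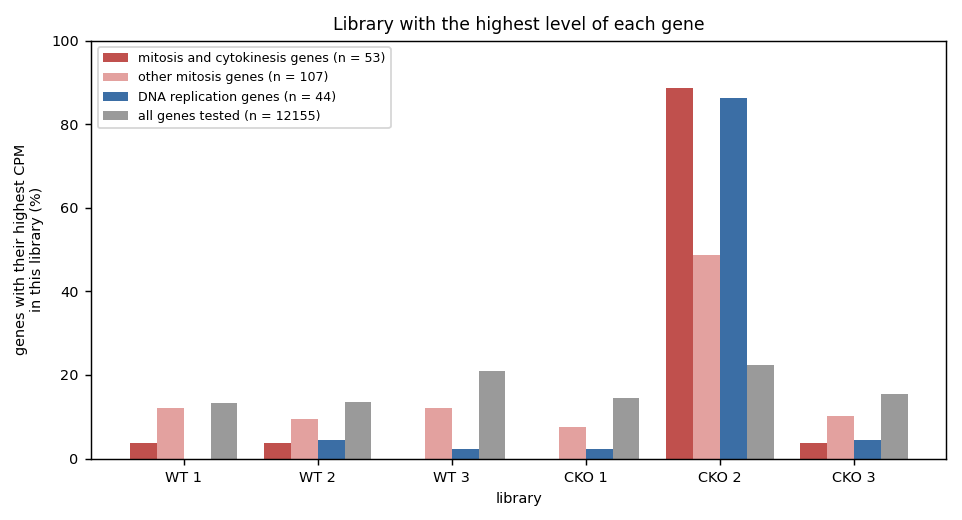
Bars, from 0, give the percent of genes whose highest CPM fell in each library, for the 53 mitosis genes, 107 other mitosis genes, 44 DNA replication genes and all 12155 genes tested. CKO 2 held the highest level in 88.7%, 48.6%, 86.4% and 22.4% of them.

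The excess in CKO 2 was shared by the genes that copy DNA before mitosis. Of 44 tested genes of DNA replication, 38 (86.4%) were highest in CKO 2, where the list took 0.3125% of the reads against 0.155 to 0.175% in the other libraries. Of 107 other tested genes of mitosis (kinetochore, spindle, entry kinases, the anaphase-promoting complex, cohesin and condensin), 52 (48.6%) were highest in CKO 2. The MuvB and DREAM complex, whose subunits are regulators of the mitosis genes, had 2 of 11 genes highest there. In its marker genes CKO 2 also stood apart from CKO 1 and CKO 3. The summed level of 8 chondrocyte markers was 4470 CPM in CKO 2 and 3596 and 3548 CPM in CKO 1 and CKO 3, against 12957 to 18210 CPM in WT. The 5 hypertrophic markers summed to 12384 CPM in CKO 2 and 14002 and 15170 CPM in CKO 1 and CKO 3, against 1437 to 4574 CPM in WT. Among them Spp1, a secreted phosphoprotein of mineralizing tissue that made up most of these sums, stood at 11114, 11877 and 12045 CPM in CKO 1, 2 and 3, and Col10a1, the collagen of hypertrophic cartilage, at 24.8, 45.5 and 16.5 CPM. Mmp13, a protease of terminal hypertrophic cartilage, stood at 377 CPM in CKO 2 against 2155 and 2301 CPM in CKO 1 and CKO 3, and Ibsp, a mineral-binding matrix protein, at 83.0 against 708 and 808 CPM. Per gene, the median difference of the 4 tested hypertrophic markers from the WT mean, as log2(CPM + 1), was 0.59 in CKO 2. It was 2.68 and 2.80 in CKO 1 and CKO 3, and -0.55, -0.41 and 0.96 in WT 1, 2 and 3. By this median CKO 2 lay within the WT range, while by the sum, most of it Spp1, it lay above every WT library. The summed level of 7 osteoblast markers was 292 CPM in CKO 2 and 607 and 601 CPM in CKO 1 and CKO 3, against 358 to 599 CPM in WT.

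Markers of other cell types were present at differing levels. The 9 skeletal muscle markers summed to 266 CPM in CKO 2 and 97.7 and 102 CPM in CKO 1 and CKO 3, against 38.3 to 192 CPM in WT, and 179 CPM of the sum in CKO 2 was Myog, a factor of differentiating muscle cells. Myh8, a myosin of fetal muscle, had 0 reads in 5 libraries and 1 in CKO 2. The 8 macrophage and osteoclast markers analysed summed to 293, 293 and 313 CPM in CKO 1, 2 and 3 and to 153 to 389 CPM in WT. All 8 had a log2 fold change above 0 (median 0.67), and 1 was called, Cd68, a lysosomal protein of macrophages, with 8.70, 6.75 and 11.8 CPM in WT and 76.3, 46.9 and 76.3 CPM in CKO libraries 1, 2 and 3 (log2 fold change 2.74, limma's adjusted p = 0.00114). The complement gene C1qb had 0 to 5.07 CPM in WT and 1.38, 8.66 and 3.47 CPM in CKO, with its highest level in CKO 2, and C1qa had 0 to 1.69 CPM in all libraries. Of blood cells few markers were analysed, 2 of 8 erythroid ones that summed to 0 to 1.73 CPM and 3 of 8 neutrophil ones that summed to 1.45 to 5.77 CPM. The 6 endothelial markers analysed of 7 summed to 7.25 to 15.8 CPM, with Cdh5 at 0 in 5 libraries. The 5 epidermal markers analysed of 7 summed to 21.1 to 61.4 CPM, with the highest sum in CKO 2. The part of these cells in the levels of the mitosis genes was not tested.

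Without CKO 2 more of the mitosis genes lay below 0 than above. CKO 2 was taken up here because it held the highest level of 47 of these same genes. The fold changes of those genes therefore had to fall when it was left out, and the calls without it rest on that choice. Of the 52 genes then tested (Espl1 fell under the minimum mean of 1 CPM), 36 were below 0 and 16 above, against 49.8% of all genes below 0, and the median log2 fold change was -0.13. With limma 3 of them were lower (Ccna2, Spc24 and Mki67) and 1 was higher (Pttg1) past the adjusted threshold. Of all genes then tested 5.03% were lower and 5.74% higher, so the share of mitosis genes called was close to that of genes in general. Against 703 genes of the whole table with all 6 libraries, 1298 were called without CKO 2. At an unadjusted p under 0.05, Plk1 was added to the lower genes, 4 in all (12.5% of all genes), and Bub3 to the higher, 2 in all (13.0%). In all, 8 genes had both CKO 1 and CKO 3 below every WT library (Ccna2, Cdc25c, Plk1, Bub1b, Spc24, Racgap1, Top2a and Mki67), against 20.6% of all genes, and 5 had both above (Cks2, Bub3, Mad2l1, Pttg1 and Prc1), against 22.9%.

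**Figure D3:**
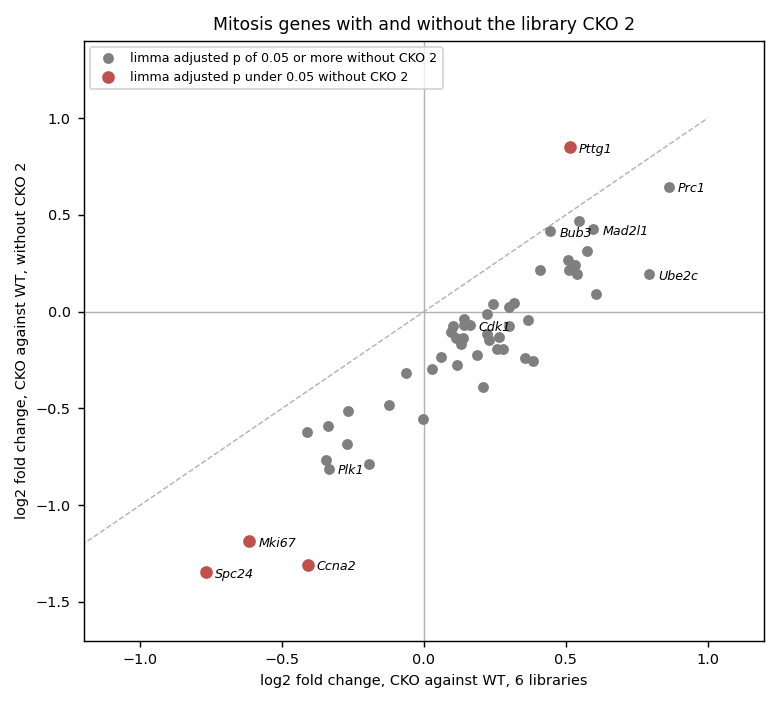
Each point is 1 of the 52 mitosis genes tested in both fits, with its log2 fold change over 6 libraries on the horizontal axis and without CKO 2 on the vertical axis. The dashed line marks equal values. Points lie below it except Pttg1, which follows from CKO 2 lying above the mean of the other CKO libraries in all genes but Pttg1. The 4 red points (Pttg1 above 0, Mki67, Ccna2 and Spc24 below) passed limma's adjusted threshold without CKO 2.

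The genes are described in turn by role, and those outside the rule for named genes were chosen after their values were seen. Levels of different genes are compared only per kb of annotated exon. On that scale the WT means ran from 0.0884 CPM per kb for Espl1 to 178 for Cks2, with a median of 3.67, and Cks2 was followed by Pttg1 (70.8), Cks1b (54.4), Bub3 (39.9), Ccnb2 (33.5) and Cdk1 (32.3). The order depends on the annotated length, since exons of rare isoforms count in full.

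The first group, Cdk1 with its cyclins and regulators, held 9 genes, of which 6 had a log2 fold change above 0 and 7 were highest in CKO 2. Cdk1, the kinase that drives entry into mitosis (ENSMUSG00000019942, chromosome 10, 69335146 to 69352938), had 153, 166 and 159 CPM in the WT libraries against 141, 245 and 163 CPM in the CKO ones. CKO 1 lay below the WT libraries, CKO 3 among them and CKO 2 above them, and the log2 fold change was 0.16 (SE 0.21, 95% interval -0.30 to 0.62, limma's adjusted p = 0.710). Cks2, a small subunit of the Cdk1 complex (ENSMUSG00000062248, chromosome 13, 51645232 to 51650660), had 129, 126 and 115 CPM in the WT libraries against 142, 246 and 154 CPM in the CKO ones. Every CKO library lay above the WT libraries, by a narrow margin in CKO 1, with a log2 fold change of 0.51 (SE 0.21, limma's adjusted p = 0.205), and it was 0.26 without CKO 2.

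Ccna2 encodes cyclin A, which acts in S phase and up to early mitosis (ENSMUSG00000027715, chromosome 3, 36564865 to 36572150). Its level was 14.5, 12.8 and 17.7 CPM in the WT libraries compared with 4.81, 40.4 and 6.07 CPM in the CKO ones. CKO 2 stood above every WT library and the other CKO libraries below every one, so that the log2 fold change of -0.41 had an interval of -1.80 to 0.98. On the recovered reads its direction turned, with 0.17 in both edgeR and DESeq2 and means of 15.0 CPM in WT and 17.1 CPM in CKO. Without CKO 2 the log2 fold change was -1.31 (limma's adjusted p = 0.0355). This call rests on leaving out a library chosen for its high levels of these genes. Exons of Ccna2 overlap those of Exosc9 on the opposite strand, and 1 other gene shares a near-identical stretch. Ccnb1, the main cyclin B, had 62.3, 66.0 and 56.6 CPM in the WT libraries against 47.5, 145 and 60.7 CPM in the CKO ones. For Ccnb1, 5 other genes share a near-identical stretch. The CKO 2 level of Ccnb1 was 2.197 times that of the next library. CKO 1 was the lowest of all and CKO 3 lay among the WT libraries. Ccnb2, the other cyclin B of the list, went another way, with 68.1, 50.3 and 35.5 CPM in the WT libraries compared with 37.8, 49.8 and 26.9 CPM in the CKO ones, where WT 1 was highest and the groups overlapped. The other 4 genes, Ccnf, the Cdk subunit Cks1b and the phosphatases Cdc25b and Cdc25c that activate Cdk1, had log2 fold changes of -0.20 to 0.23, and Cdc25b was highest in CKO 3.

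The transcription factors of the group were near the floor. Foxm1, which activates genes of G2 and mitosis (ENSMUSG00000001517, chromosome 6, 128362967 to 128376146), had 2, 3 and 3 reads in WT and 2, 12 and 2 reads in CKO. Mybl2, its partner in the MuvB complex, had 0, 2 and 3 reads in WT and 3, 7 and 0 reads in CKO. In both, reads above the range of WT were found in CKO 2, and no fold change is given because the WT libraries lay at or under 3 reads.

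Among the mitotic kinases and the chromosomal passenger complex, which corrects faulty attachments and positions the cleavage furrow, 7 of 7 genes were highest in CKO 2 and the log2 fold change of 6 was above 0. Cdca8, a subunit of that complex known as borealin (ENSMUSG00000028873, chromosome 4, 124918465 to 124939311), had 60.2, 48.0 and 36.3 CPM in the WT libraries against 43.3, 96.0 and 37.3 CPM in the CKO ones. CKO 1 and CKO 3 lay within the WT range, and the log2 fold change was 0.19 (SE 0.34, limma's adjusted p = 0.800). Tpx2, which activates Aurora A at the spindle (ENSMUSG00000027469, chromosome 2, 152847964 to 152895321), had 30.4, 27.0 and 17.7 CPM in the WT libraries compared with 30.9, 53.4 and 30.3 CPM in the CKO ones. Here the groups overlapped only through WT 1, which stood just above CKO 3, and the log2 fold change was 0.57 (SE 0.30, limma's adjusted p = 0.303). Plk1, a kinase needed from entry to cytokinesis, was at 28.3, 33.8 and 26.2 CPM in the WT libraries against 17.9, 45.5 and 14.7 CPM in the CKO ones. As for Ccna2, the CKO libraries lay on both sides of the WT range, and its log2 fold change of -0.33 became -0.81 without CKO 2 (limma's adjusted p = 0.0680). The Aurora kinases Aurka and Aurkb and the passenger subunits Incenp and Birc5 had log2 fold changes of 0.14 to 0.30.

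The spindle checkpoint and the genes of anaphase onset had a median log2 fold change of 0.51 over 9 genes, of which 8 were above 0 and 8 were highest in CKO 2. Both counts include Espl1, which reached the minimum mean of 1 CPM only through CKO 2. Bub3, a checkpoint protein at kinetochores (ENSMUSG00000066979, chromosome 7, 131560222 to 131571895), had 254, 267 and 318 CPM in the WT libraries compared with 389, 396 and 354 CPM in the CKO ones. The 3 CKO libraries lay close together and above every WT library, and the mean was 279 ± 33.7 CPM in WT and 380 ± 22.0 CPM in CKO (SD, n = 3). Its log2 fold change of 0.45 (SE 0.15, limma's adjusted p = 0.119, the smallest of the 53 genes) was 0.41 without CKO 2. Mad2l1, which holds the anaphase-promoting complex inactive until chromosomes are attached (ENSMUSG00000029910, chromosome 6, 66535390 to 66547220), had 29.7, 22.5 and 30.4 CPM in the WT libraries against 38.5, 53.4 and 35.5 CPM in the CKO ones. Here too the groups did not overlap, with a log2 fold change of 0.60 (SE 0.24, limma's adjusted p = 0.190). Stretches near-identical to other genes are annotated for both Bub3 and Mad2l1 (2 genes each).

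Pttg1 was the exception in its order of libraries. It encodes securin, the inhibitor that anaphase removes to free separase (ENSMUSG00000020415, chromosome 11, 43420250 to 43426251), and had 148, 149 and 128 CPM in the WT libraries compared with 248, 126 and 264 CPM in the CKO ones. CKO 1 and CKO 3 lay above every WT library and CKO 2 lay below every one, the single mitosis gene with its lowest level there. Its log2 fold change was 0.51 over 6 libraries (SE 0.26, limma's adjusted p = 0.287) and 0.85 without CKO 2 (95% interval 0.53 to 1.17, limma's adjusted p = 0.00488). With its lowest level in CKO 2, the fold change had to rise when that library was left out, and the call rests on that choice. No near-identical copy and no overlapping gene was found for Pttg1. Ube2c, the ubiquitin-conjugating enzyme that works with the anaphase-promoting complex (ENSMUSG00000001403, chromosome 2, 164769898 to 164778822), had 6, 4 and 3 reads in WT and 8, 22 and 3 reads in CKO. The level of 15.9 CPM in CKO 2 was 2.89 times that of the next library, and the log2 fold change of 0.79 had an interval of -0.44 to 2.02. Exons of Ube2c overlap those of Tnnc2, a skeletal muscle gene on the opposite strand, and 2 other genes share a near-identical stretch. Tnnc2 had 7.94 CPM in CKO 2, its lowest level, against 11.7 and 14.7 CPM in CKO 1 and CKO 3 and 9.76 to 38.0 CPM in WT. Espl1, which encodes separase, had 1 read in each WT library and 3, 8 and 0 reads in CKO, so no fold change is given. Of the remaining checkpoint genes, the kinases Bub1 and Ttk and Cdc20, the activator of the anaphase-promoting complex, had log2 fold changes of 0.13 to 0.55, and Bub1b had -0.34.

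**Figure D4:**
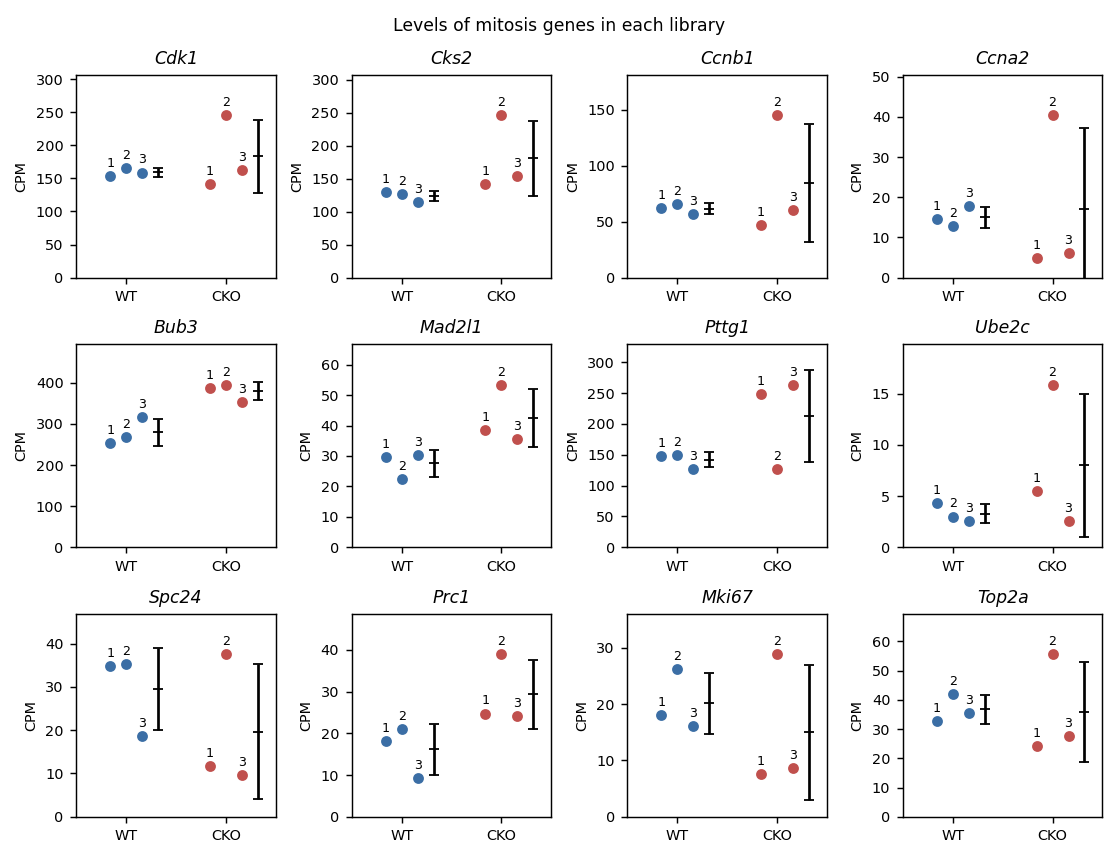
CPM of 12 mitosis genes in each library, numbered by replicate, with WT in blue and CKO in red, and to the right of each group its mean with the SD (n = 3). Axes start at 0, which cuts off the lower bar of Ccna2 in CKO, whose SD (20.2 CPM) exceeds its mean (17.1 CPM). CKO 2 is the highest point in 11 panels and the lowest in that of Pttg1, and the groups do not overlap for Cks2, Bub3, Mad2l1 and Prc1.

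Of the 7 centromere and kinetochore genes, which link chromosomes to spindle fibres, 5 had a log2 fold change above 0 and 6 were highest in CKO 2. Cenpa, the histone variant of centromeres (ENSMUSG00000029177, chromosome 5, 30666777 to 30674830), had 96.4, 71.3 and 49.8 CPM in the WT libraries against 67.4, 108 and 59.8 CPM in the CKO ones, with groups that overlapped and a log2 fold change of 0.11 (SE 0.29, limma's adjusted p = 0.863). Spc24, a subunit of the Ndc80 complex that grips microtubules (ENSMUSG00000074476, chromosome 9, 21755442 to 21760303), had 34.8, 35.3 and 18.6 CPM in the WT libraries compared with 11.7, 37.5 and 9.53 CPM in the CKO ones. CKO 1 and CKO 3 lay below every WT library and CKO 2 just above all of them, and the log2 fold change was -0.77 (SE 0.47, limma's adjusted p = 0.377). Without CKO 2 it was -1.35 (95% interval -2.08 to -0.62, limma's adjusted p = 0.0268). That fit keeps only CKO 1 and CKO 3, and CKO 2 was left out for its high levels of these genes, so the call rests on that choice. The partners of Spc24 in the complex had another order of libraries. Spc25 had 37.7, 31.5 and 30.4 CPM in the WT libraries against 37.1, 72.2 and 39.9 CPM in the CKO ones, with CKO 1 and CKO 3 beside WT 1. Ndc80 had 25.4, 16.5 and 13.5 CPM in the WT libraries compared with 16.5, 33.2 and 19.9 CPM in the CKO ones. For Ndc80, 3 other genes share a near-identical stretch. Whether Spc24 differed from Spc25 and Ndc80 in its change was not tested. The kinetochore motor Cenpe and the Ndc80 subunit Nuf2 had log2 fold changes of 0.32 and 0.10. Cenpf, a large kinetochore protein, had -0.27 and was highest in WT 2, where it stood just above CKO 2.

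The 6 spindle genes comprised motors of the kinesin family and microtubule-binding proteins, of which 4 were above 0 and 5 highest in CKO 2. Nusap1, which bundles spindle microtubules (ENSMUSG00000027306, chromosome 2, 119618298 to 119651244), had 56.5, 66.8 and 47.3 CPM in the WT libraries against 48.1, 83.7 and 59.8 CPM in the CKO ones. The CKO libraries apart from CKO 2 lay within the WT range (log2 fold change 0.14, SE 0.24, limma's adjusted p = 0.781). Hmmr, a hyaluronan receptor that also binds the spindle (ENSMUSG00000020330, chromosome 11, 40701395 to 40733422), had 4.35, 9.76 and 8.45 CPM in the WT libraries compared with 7.57, 24.5 and 7.80 CPM in the CKO ones. CKO 2 again stood alone, at 2.52 times the next library, and 22 genes were found with a near-identical stretch, so the reads of Hmmr are uncertain. Its log2 fold change was 0.61 (SE 0.48, limma's adjusted p = 0.513) and 0.09 without CKO 2. The kinesins Kif11 and Kif22 had log2 fold changes of 0.26 and 0.53, and Kif4 had -0.27 with its highest level in WT 2. Kif2c, which removes tubulin from microtubule ends, had 9.42, 7.50 and 5.91 CPM in WT, while its CKO libraries spread from 2.60 to 17.3 CPM on both sides of the WT range.

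All 6 genes of the central spindle and cytokinesis were highest in CKO 2, and the log2 fold change was above 0 for 5 of them. Kif20a, a kinesin of the central spindle (ENSMUSG00000003779), had 55.1, 51.0 and 38.9 CPM in the WT libraries against 48.8, 78.0 and 45.9 CPM in the CKO ones, with CKO 1 and CKO 3 within the WT range and a log2 fold change of 0.22 (SE 0.25, limma's adjusted p = 0.663). Prc1, which crosslinks the microtubules between the separating chromosomes (ENSMUSG00000038943, chromosome 7, 80294450 to 80316259), had 18.1, 21.0 and 9.29 CPM in the WT libraries compared with 24.8, 39.0 and 24.3 CPM in the CKO ones. Every CKO library lay above every WT library, and the mean was 16.1 ± 6.11 CPM in WT and 29.3 ± 8.35 CPM in CKO (SD, n = 3). Its log2 fold change of 0.86 (SE 0.34, limma's adjusted p = 0.176) was 0.65 without CKO 2. Exons of Prc1 overlap those of Rccd1 on the opposite strand. Its partners of the central spindle and the furrow, Kif23, Racgap1, Ect2 and Anln, had log2 fold changes of -0.06 to 0.41.

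Of the 7 genes of mitotic chromosome structure 4 were above 0 and 6 were highest in CKO 2. Mki67, which coats mitotic chromosomes and is the standard marker of dividing cells (ENSMUSG00000031004, chromosome 7, 135689784 to 135716361), had 18.1, 26.3 and 16.1 CPM in the WT libraries against 7.57, 28.9 and 8.67 CPM in the CKO ones. CKO 1 and CKO 3 lay below every WT library and CKO 2 above them, with a log2 fold change of -0.62 (SE 0.46, limma's adjusted p = 0.480). Without CKO 2 it was -1.19 (95% interval -1.90 to -0.47, limma's adjusted p = 0.0414). CKO 2 was left out for its high levels of these genes, Mki67 among them, so the fall and the call rest on that choice. Top2a, the topoisomerase that untangles sister chromosomes, also had CKO 2 highest and CKO 1 and CKO 3 below every WT library, at 32.6, 42.0 and 35.5 CPM in the WT libraries compared with 24.1, 55.6 and 27.7 CPM in the CKO ones, and did not pass the threshold without CKO 2 (log2 fold change -0.48, limma's adjusted p = 0.211). Smc4, an ATPase of the condensin that compacts chromosomes (ENSMUSG00000034349, chromosome 3, 69004738 to 69034623), had 82.6, 64.5 and 41.4 CPM in the WT libraries against 44.7, 67.8 and 35.5 CPM in the CKO ones. WT 1 was its highest library, and the groups overlapped (log2 fold change -0.34, SE 0.30, limma's adjusted p = 0.570). The other condensin subunits, Smc2, Ncapd2, Ncapg and Ncaph, were highest in CKO 2 and had log2 fold changes of 0.03 to 0.54.

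The genes with TTTGAA in the promoter window and those without did not part by library. Of the 32 with it 29 were highest in CKO 2, and of the 12 without it 10 were, with median log2 fold changes of 0.20 and 0.31. Both groups are small and were compared as a description.

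In the 5 lists of other genes of mitosis, 2 of 107 tested genes were higher and 2 lower past limma's adjusted threshold, shares near the 3.18% and 2.6% of all genes. Of 28 tested genes of the spindle and centrosome 1 was higher and 0 lower. That gene was Gtse1, which encodes a microtubule-binding protein of G2 and mitosis and had 10.1, 12.0 and 5.91 CPM in the WT libraries compared with 36.4, 61.4 and 38.1 CPM in the CKO ones. All 3 CKO libraries lay above every WT library (log2 fold change 2.17, SE 0.32, limma's adjusted p = 0.00508, and 1.94 without CKO 2). Of 18 genes of the anaphase-promoting complex, the ubiquitin ligase that ends mitosis, 1 was higher and 2 were lower. Anapc5 had 273, 229 and 235 CPM in the WT libraries against 84.6, 102 and 107 CPM in the CKO ones. Cdc16 had 138, 90.1 and 168 CPM in the WT libraries compared with 37.8, 72.9 and 47.7 CPM in the CKO ones. Both subunits were lower in every CKO library (log2 fold changes -1.32 and -1.31, limma's adjusted p = 0.00263 and 0.0266). Anapc10, another subunit, was higher in each, at 105, 94.6 and 97.9 CPM against 54.4, 60.8 and 64.2 CPM in WT (log2 fold change 0.72, limma's adjusted p = 0.0381).

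Of 37 kinetochore and checkpoint genes, 9 kinases and phosphatases of entry, 15 genes of cohesin and condensin and 11 genes of MuvB and DREAM, 0 were called by limma's adjusted p, with 5, 0, 0 and 0 higher and 1, 1, 0 and 0 lower at an unadjusted p under 0.05 (11.2% and 10.1% of all genes). By the criterion of the study, met by 10.4% of all genes, 1 kinetochore gene was higher, Ska3. It had 2, 0 and 0 reads in WT and 4, 6 and 5 reads in CKO, and no fold change is given at this depth. The lower kinase regulator was Bora, which helps Aurora A switch on Plk1, with 16.7, 18.8 and 17.7 CPM in the WT libraries against 4.81, 9.38 and 9.53 CPM in the CKO ones. Its groups did not overlap, and the log2 fold change was -1.12 (limma's adjusted p = 0.0801). Of the 44 DNA replication genes 2 were higher and 0 lower past the adjusted threshold, against 3.18% and 2.6% of all genes. By the criterion of the study, which 10.4% of all genes met, 3 were higher and 1 was lower. These were the same 2 genes with Pole upwards (0 to 6 reads in each library) and Ung downwards (log2 fold change -1.18, limma's adjusted p = 0.111). Rrm2, the regulated subunit of ribonucleotide reductase, had 151, 141 and 114 CPM in the WT libraries compared with 336, 617 and 329 CPM in the CKO ones, so that CKO 1 and CKO 3 also lay above WT (log2 fold change 1.597, limma's adjusted p = 0.00532). Rfc3, a subunit of the clamp loader, had 23.9, 31.5 and 30.4 CPM in the WT libraries against 56.4, 66.4 and 61.5 CPM in the CKO ones (log2 fold change 1.08, limma's adjusted p = 0.0159). Median log2 fold changes were 0.25 for DNA replication and 0.15 for the 5 other mitosis lists together, of which the medians without CKO 2 were -0.04 and 0.01.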

How the data were processed

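Poly(A) libraries of 3 WT and 3 CKO samples, grouped by the labels, were analysed. The authors deposited CPM per gene. The study names a stranded mRNA kit for the libraries. The submitters' processing notes name cutadapt 2.5, HISAT2 and featureCounts 1.6.3, while genome build, annotation and the strand setting of the counting are not given in the sources used here. Of the deposited CPM values 100% were whole multiples of 1 read (within 0.001 reads), which gave 1153871 to 1454094 reads per library. The counts recovered in this way went into the alternatives, in which edgeR called 737 genes.

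The 12155 genes that averaged 1 CPM or more were fitted with limma 3.58.1 (R 4.3.3) on log2(CPM + 1), with no covariate, moderation along a mean-variance trend, and p-values adjusted by Benjamini-Hochberg over all genes tested. Fold changes on this scale understate those of low genes. Alternatives were a pseudocount of 0.1, no filter, a term for the replicate number, TMM scaling, each library left out, edgeR 4.0.16 (quasi-likelihood, TMM or RLE factors, with and without its filter) and DESeq2 1.42.0, and, chosen after seeing the data, edgeR without CKO 2.

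The members and lists were chosen with earlier results of these data known. Named with every library were members past the adjusted threshold or the criterion of the study, and in each role the member with the highest mean CPM and that with the largest fold change in size. In each other list, up to 3 genes past the adjusted threshold with the smallest p were named, or past the criterion where none passed the threshold. Near-identical stretches were counted with BLAST 2.17.0 (90% identity over 300 bp of annotated transcripts), so shared repeats can count. Of the 53 members 18 had one, 13 overlapped a gene on the opposite strand and 4 on the same strand. Positions and exon lengths are from GENCODE M21 (GRCm38), matched by identifier.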

Additional observations from a re-analysis of the deposited data

How the results depend on the processing

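In the 13 alternatives that keep CKO 2 (pseudocount, filter, TMM scaling, replicate number as a term, another library left out, edgeR with 3 settings and DESeq2), the adjusted threshold was passed by 0 mitosis genes upwards and 0 downwards, and the median log2 fold change was 0.13 to 0.38. Leaving out each library in turn gave 0 to 1 higher genes, 0 to 3 lower genes and medians of -0.13 to 0.38, with both extremes of the counts and the lower one of the medians without CKO 2. edgeR's quasi-likelihood test without CKO 2, a refit of the same libraries chosen after seeing the data, called 1315 of 8129 genes tested. Among the 47 mitosis genes it tested, 1 was higher (Pttg1) and 3 were lower (Ccna2, Spc24 and Mki67), with a median of -0.19. In both fits without CKO 2, 1 group holds 2 libraries, and the spread is pooled over both groups. The cause of the difference between CKO 2 and the other CKO libraries was not tested. With the replicate number as a block, 0 genes were higher, 0 were lower and the median was 0.22, while 385 genes of the whole table were called against 703. The labels link WT and CKO samples only by that number, and whether libraries shared a litter or batch is not known. The correlations of the deviations of same-numbered WT and CKO libraries were 0.04, -0.13 and -0.10. Those of the other pairs were -0.12 to 0.16. So few values cannot show whether the samples were paired. Among 15 named genes, Mki67 and Spc24 crossed the adjusted threshold, both without CKO 2. Depth limits Foxm1, Mybl2 and Espl1, with 14 to 24 reads over 6 libraries, and 15 of the 53 genes had under 100 reads in all.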
